A study of Danio rerio with 11 samples.

Results

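Fully grown ovarian follicles of 2 zebrafish double mutants were compared directly: 4 libraries of fshb/lhcgr mutants against 4 libraries of lhb/lhcgr mutants. These are 8 of the 11 libraries of the series, chosen by their genotype labels, and the remaining 3 are controls, shown here only as levels. The fshb/lhcgr mutants were fshb-/- and lhcgr-/- with lhb+/- and fshr+/-. The lhb/lhcgr mutants were lhb-/- and lhcgr-/- with fshb+/- and fshr+/-, and the controls were heterozygous at all 4 loci. Both mutants therefore lacked lhcgr and carried a single intact copy of fshr, and they differed in which hormone beta subunit was lost. Which lesion each allele carries is not given in the labels. The fish (Danio rerio) were kept to 180 days after fertilisation, and hand-picked follicles of over 650 µm were taken after passage of the ovary over a mesh of 600 µm. The labels number the replicates without stating that each is another fish, and the p-values describe the spread between libraries whatever its source.

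Follicle-stimulating hormone (FSH) and luteinising hormone (LH) are pituitary hormones that pair a common alpha subunit (gene cga) with a beta subunit of their own (genes fshb and lhb). Their receptors, encoded by fshr and lhcgr, sit on the somatic cells around the oocyte and signal mainly by raising cAMP. FSH is best known for follicle growth, and LH for the final maturation of the oocyte and its release. A fully grown follicle consists of the oocyte, an inner layer of granulosa cells and an outer layer of theca cells with connective tissue, capillaries and contractile cells, and a bulk library holds RNA of all of them. For this reason fewer cells of a type and less RNA per cell cannot be told apart in any value below.

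The libraries held between 14179252 counts (fshb/lhcgr mutant 3) and 25484718 counts (lhb/lhcgr mutant 3), with the other 6 mutant libraries at 15285414 to 15805763. Expression is given in CPM, a gene's counts divided by the TMM-scaled library size and multiplied by 1e+06, and differences are log2 values of fshb/lhcgr over lhb/lhcgr mutants with a standard error (SE). Adjusted p-values come from the quasi-likelihood test of edgeR, adjusted by Benjamini-Hochberg over all 18062 genes tested, and a gene is said to be higher or lower in a test when its adjusted p was under 0.05. On the first principal component, which held 32.8% of the variance, the fshb/lhcgr libraries lay between -62.8 and -25.3 and the lhb/lhcgr libraries between 22.6 and 70.0. Lhb/lhcgr mutants 3 and 4 were the closest pair (r = 0.981 across genes), apart from every other pair of the series (at most 0.951, fshb/lhcgr mutants 1 and 3). The variance of their count differences, at 24.5 times what sampling would give, was the smallest of any pair, followed by 30.3 for fshb/lhcgr mutants 1 and 3. This ratio of variances grows with depth, and lhb/lhcgr mutant 3 is the deepest library. Oocyte genes (bmp15, gdf9), granulosa genes (inha, amh, fshr) and the theca gene cyp17a1 were detected in all 11 libraries. Of 33 liver-made yolk and plasma protein genes matched, 9 passed the filter on low counts and none was called, with a median log2 difference of -1.15. Without the filter 30 were tested, 1 was higher and 0 were lower, and the median was 0.97. The sign of this median therefore depends on the filter. The summed level of the 33 was 108 and 153 CPM in lhb/lhcgr mutants 3 and 4, but 21.7 and 20.4 CPM in lhb/lhcgr mutants 1 and 2. It was 14.1 to 38.6 CPM in fshb/lhcgr mutants and 16.1 to 52.8 CPM in controls.

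The mutated genes themselves gave little contrast between the double mutants. The receptor gene lhcgr (ENSDARG00000026081) had 148, 162, 171 and 102 CPM in fshb/lhcgr mutants, against 114, 123, 187 and 167 CPM in lhb/lhcgr mutants (log2 difference -0.02, SE 0.20, adjusted p = 0.970). These ranges overlap, and the control libraries had 153, 337 and 104 CPM. For lhb (ENSDARG00000099363), counts were 47, 25, 97 and 61 in fshb/lhcgr mutants and 20, 160, 10 and 18 in lhb/lhcgr mutants (0.38, SE 0.89, adjusted p = 0.858). Lhb/lhcgr mutant 2 held more lhb counts than any fshb/lhcgr library, and the other 3 lhb/lhcgr libraries held fewer than all of them. The genes fshb (0 to 11 counts a library) and cga (0 counts in every library) are pituitary genes and were not tested. An mRNA count does not show whether a mutated copy gives protein.

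In all, 516 genes (2.86% of those tested) were higher and 349 (1.93%) were lower in fshb/lhcgr than in lhb/lhcgr follicles, together 865 or 4.79%. Of them 261 were higher and 248 lower by over 2-fold, and 819 had values of 1 group all beyond the other, as had 2411 genes (13.3%) among all tested. The split depends on the scaling: with library size alone 323 were higher and 625 lower, and the median log2 difference of all genes was -0.15 in place of -0.02. The counts also lean on single libraries. Leaving out lhb/lhcgr mutant 1 turned the split, with 427 higher and 484 lower. Leaving out lhb/lhcgr mutant 3 gave 227 higher and 113 lower, and leaving out lhb/lhcgr mutant 4 gave 152 and 77. Without fshb/lhcgr mutant 1 they were 219 and 104, and fshb/lhcgr mutant 3 left out gave 289 and 167. With both lhb/lhcgr mutants 3 and 4 left out, 46 were higher and 14 lower. List counts from such fits, given below, are to be read beside these totals, since calls fell or rose over all genes too.

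**Figure D1:**
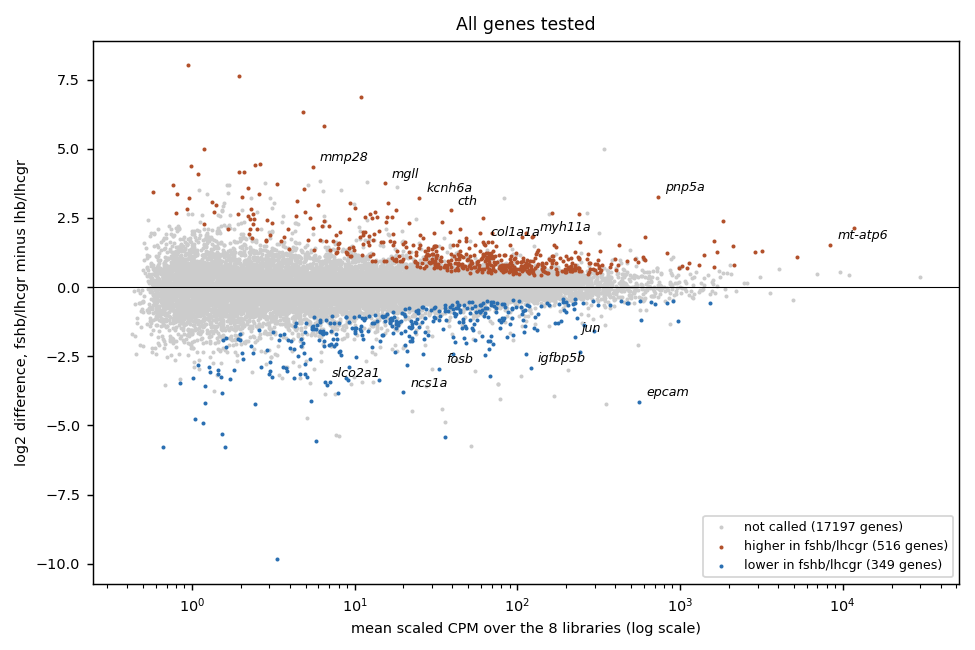
Log2 difference of fshb/lhcgr over lhb/lhcgr mutants (vertical axis) against the mean scaled CPM over the 8 libraries (horizontal, log scale) for the 18062 genes tested, one point a gene. Orange marks the 516 genes called higher and blue the 349 called lower; epcam stands out among the abundant genes at -4.14, and pnp5a at 3.26.

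The gene with the smallest p was epcam (ENSDARG00000040534), which encodes an adhesion protein of epithelial cell surfaces. It had 75.6, 59.6, 46.3 and 58.0 CPM in fshb/lhcgr mutants, against 1109, 919.6, 953 and 1248 CPM in lhb/lhcgr mutants. The fshb/lhcgr level was 17.7-fold lower (log2 difference -4.14, SE 0.19, adjusted p = 6.77e-07), with a wide gap between the groups. Controls had 663, 713 and 901 CPM, so both mutants lay outside the control range, fshb/lhcgr mutants below it and lhb/lhcgr mutants above it. The call held without any 1 library and without lhb/lhcgr mutants 3 and 4 together.

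Other epithelial and junction genes were mixed. Among 19 surface and ciliated epithelium genes tested, 3 were lower in fshb/lhcgr mutants (15.8%, against 1.93% of all genes) and none higher: epcam, the keratin gene krt91 and zgc:77517. The keratin gene krt91 averaged 46.9 ± 6.63 CPM in fshb/lhcgr mutants and 107 ± 20.2 CPM in lhb/lhcgr mutants (SD, n = 4 each; log2 difference -1.19, SE 0.17, adjusted p = 0.00516). The summed level of that list was 810.4 to 1342 CPM in fshb/lhcgr mutants, 2065 to 2818 CPM in lhb/lhcgr mutants and 1386 to 2354 CPM in controls. The gap came from epcam: without it the sum was 752 to 1296 CPM in fshb/lhcgr mutants and 1090 to 1633 CPM in lhb/lhcgr mutants, which overlap. With lhb/lhcgr library 1 left out, 5 genes of the list were lower, as were 484 of all genes. Of 49 cell junction and adhesion genes tested, 3 were lower (epcam, the claudin gene cldn7a and the integrin gene itga6a) and 3 higher (the claudin gene cldn12, the occludin gene oclnb and the connexin gene cx34.5). That is 6.12% each way, against 1.93% of all genes lower and 2.86% higher. For cldn7a the values were 10.9, 24.1, 22.3 and 8.96 CPM in fshb/lhcgr mutants and 33.8, 53.9, 99.4 and 76.3 CPM in lhb/lhcgr mutants (-2.0, SE 0.40, adjusted p = 0.0246). The tight-junction gene cldn12 went the other way, with 84.1 ± 10.3 CPM in fshb/lhcgr mutants and 47.0 ± 4.71 CPM in lhb/lhcgr mutants (0.84, SE 0.14, adjusted p = 0.00857). Neither gene's groups overlap. The call of zgc:77517 ended without lhb/lhcgr library 3 or 4, or without fshb/lhcgr library 1 or 4 (adjusted p = 0.0502 to 0.078), and that of cldn7a without lhb/lhcgr library 3 or 4, or without fshb/lhcgr library 1 or 3 (adjusted p = 0.0514 to 0.0773). Those of itga6a, oclnb and cx34.5 each ended without any 1 of 5 or 6 libraries (0.0601 to 0.138). Medians were -0.44 for the epithelium list and 0.18 for the junction list.

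Immediate early genes, which cells switch on within minutes of a stimulus and which include the AP-1 transcription factors of the Fos and Jun families, had the most lower genes of the 37 lists under TMM scaling (with library size alone, cytosolic ribosomal protein genes had more, 34 against 17). Of 38 tested, 15 (39.5%, against 1.93% of all genes) were lower in fshb/lhcgr mutants and none was higher, with a median log2 difference of -0.90 against -0.02 over all genes. The AP-1 gene jun (ENSDARG00000043531) had 106, 130.3, 83.0 and 80.0 CPM in fshb/lhcgr mutants and 232, 354, 391 and 425 CPM in lhb/lhcgr mutants (-1.81, SE 0.21, adjusted p = 0.00214). Every fshb/lhcgr library was below every lhb/lhcgr library, and the controls, at 151, 584 and 243 CPM, spanned the lhb/lhcgr range. The related gene fosb (ENSDARG00000055751) had 7.61, 12.3, 7.57 and 2.78 CPM in fshb/lhcgr mutants and 36.2, 60.0, 62.3 and 74.7 CPM in lhb/lhcgr mutants (-2.95, SE 0.39, adjusted p = 0.00529).

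The early growth response genes, which encode zinc-finger transcription factors, did not all differ. For egr3 (ENSDARG00000089156) the values were 5.71, 9.86, 8.73 and 7.11 CPM in fshb/lhcgr mutants and 19.3, 29.2, 41.2 and 43.5 CPM in lhb/lhcgr mutants (-2.08, SE 0.29, adjusted p = 0.00399), and the groups do not overlap. The paralogs egr2a (-3.27) and egr2b (-2.15) were lower as well. In contrast egr1 averaged 371 ± 132 CPM in fshb/lhcgr mutants and 437 ± 114 CPM in lhb/lhcgr mutants (-0.23, SE 0.27, adjusted p = 0.677). Also lower were fosab (-1.39), junba (-1.56), junbb (-1.2), jund (-1.73), ier5 (-1.78), ier2a (-1.12), ier2b (-0.96), gadd45ba (-1.96), gadd45bb (-1.43) and btg2 (-0.62). The remaining 23 members ran from -1.46 (nr4a3) to 1.09 (ier5l), and klf2a, mycb and socs3b were among those near 0. Some calls were weak. Those of ier2b and gadd45bb were each kept in 2 of 8 fits that left out 1 library. That of egr2b was kept in 3, of btg2 in 4, of junba in 5 and of gadd45ba in 6. Lower members numbered 9 without fshb/lhcgr mutant 1 and likewise 9 when fshb/lhcgr mutant 3 was left out, and 1 without lhb/lhcgr mutants 3 and 4 together. In these fits 104, 167 and 14 of all genes were lower. In lhb/lhcgr mutants 3 and 4 the summed level of the list was 7569 and 7347 CPM, against 4467 and 6069 CPM in lhb/lhcgr mutants 1 and 2. It was 2828 to 4345 CPM in fshb/lhcgr mutants and 4851 to 9724 CPM in controls.

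**Figure D2:**
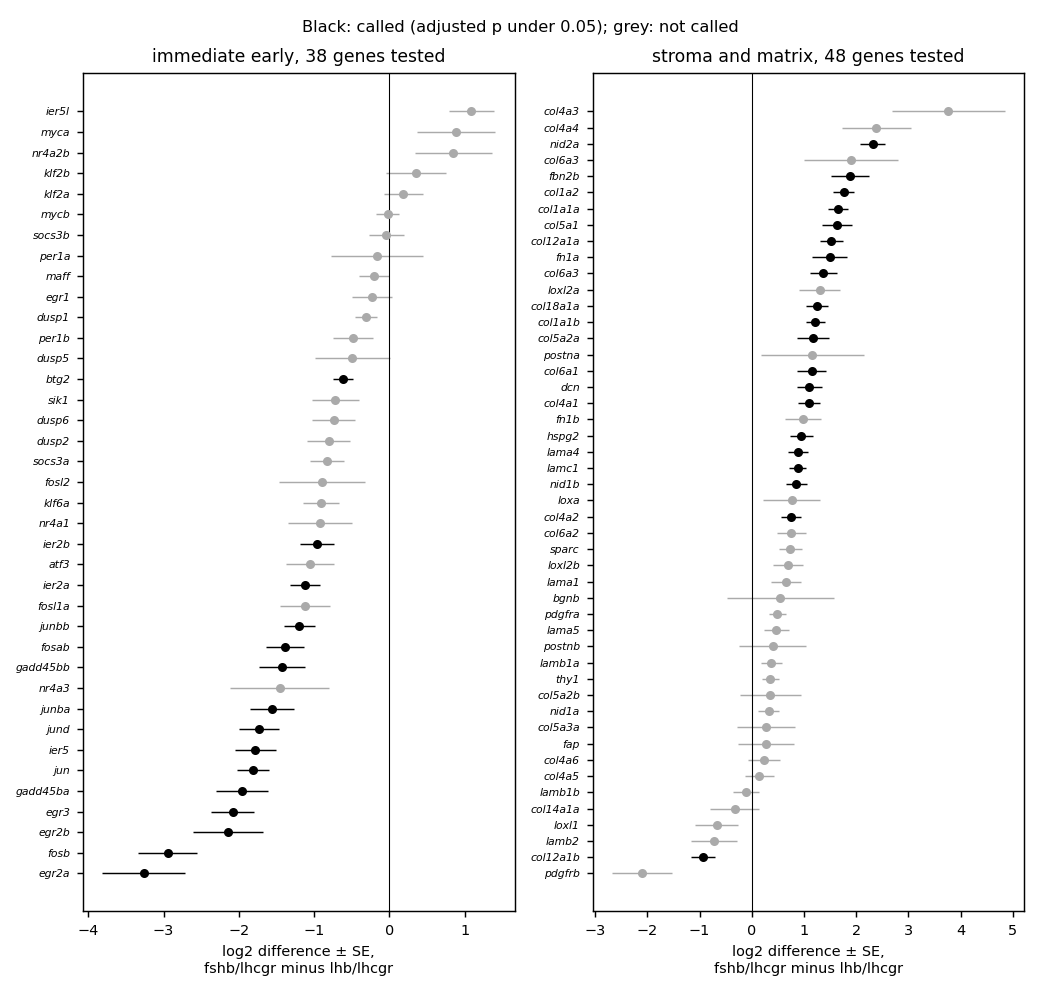
Log2 difference of fshb/lhcgr over lhb/lhcgr mutants (horizontal axis, point ± SE) for every tested member of the immediate early list (left, 38 genes) and of the stroma and matrix list (right, 48 genes; 2 of its genes carry the symbol col6a3). Black points were called: 15 immediate early genes, all below 0, and 20 stroma and matrix genes, of which col12a1b alone lies below 0.

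Receptors and steroid enzymes of the follicle wall changed in both directions. The FSH receptor gene fshr (ENSDARG00000071494), which granulosa cells express, had 15.2, 31.9, 19.9 and 13.3 CPM in fshb/lhcgr mutants and 41.5, 44.5, 53.7 and 45.3 CPM in lhb/lhcgr mutants (-1.21, SE 0.25, adjusted p = 0.0212). The gene of 17-beta-hydroxysteroid dehydrogenase 1, hsd17b1 (ENSDARG00000027469), whose enzyme makes estradiol from estrone, had 15, 36.5, 20.2 and 16.9 CPM in fshb/lhcgr mutants and 51.5, 44.2, 57.7 and 50.4 CPM in lhb/lhcgr mutants (-1.2, SE 0.26, adjusted p = 0.0233). Both genes were lower in every fshb/lhcgr library than in any lhb/lhcgr library, and both had fshb/lhcgr mutant 2 as the highest of its group. Controls averaged 12.4 ± 9.03 CPM for fshr and 14.7 ± 7.25 CPM for hsd17b1 (SD, n = 3), near the fshb/lhcgr level.

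The steroid transport gene star (ENSDARG00000006137), whose protein brings cholesterol into mitochondria for the first step of steroid synthesis, was higher instead. It had 14.0, 17.0, 21.5 and 47.9 CPM in fshb/lhcgr mutants and 6.08, 12.3, 6.44 and 7.20 CPM in lhb/lhcgr mutants (1.65, SE 0.40, adjusted p = 0.0394). Fshb/lhcgr mutant 4 is far above the rest, and without it the difference was 1.13 (adjusted p = 0.0657). The nuclear receptor gene nr5a1a (ENSDARG00000103176), a regulator of steroidogenic genes, had 217, 217, 300.4 and 163 CPM in fshb/lhcgr mutants and 71.7, 85.5, 129 and 125 CPM in lhb/lhcgr mutants (1.13, SE 0.22, adjusted p = 0.0187). The 3-beta-hydroxysteroid dehydrogenase gene hsd3b1 averaged 138 ± 33.5 CPM in fshb/lhcgr mutants and 72.7 ± 16.2 CPM in lhb/lhcgr mutants (0.92, SE 0.20, adjusted p = 0.0231). For the last 2 genes the groups are apart, although the controls range more widely than either mutant, at 108 to 381 CPM for nr5a1a and 66.2 to 436 CPM for hsd3b1.

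Of 30 steroidogenesis genes tested, 4 were higher (star, nr5a1a, hsd3b1 and the carbonyl reductase gene cbr1) and 2 lower (hsd17b1 and cyp17a2, which encodes a 17-alpha-hydroxylase), and the median was -0.05. The shares were 13.3% higher and 6.67% lower, against 2.86% and 1.93% of all genes. Several central enzymes gave no call. The theca gene cyp17a1, whose enzyme makes androgen precursors, averaged 121 ± 9.70 CPM in fshb/lhcgr mutants and 125 ± 19.4 CPM in lhb/lhcgr mutants (-0.05, SE 0.14, adjusted p = 0.872). For the side-chain cleavage gene cyp11a2 the difference was -0.46 (SE 0.26, adjusted p = 0.333). The ovarian aromatase gene cyp19a1a, whose enzyme makes estrogen, had 2.31, 11.6, 1.47 and 4.82 CPM in fshb/lhcgr mutants and 0.0602, 2.26, 2.26 and 0.3 CPM in lhb/lhcgr mutants (2.02, SE 0.92, adjusted p = 0.247), with overlapping ranges. Among 22 granulosa markers 3 were lower (13.6%, against 1.93% of all genes: fshr, hsd17b1 and the transcription factor gene foxl2b) and none higher, with a median of -0.52. The count was 6 with lhb/lhcgr library 1 left out, where 484 of all genes were lower. It was 1 without lhb/lhcgr library 3 (113 of all genes) or fshb/lhcgr library 4 (284). It was 0 without lhb/lhcgr library 4 (77), without fshb/lhcgr library 1 (104) or 3 (167), or in the fit with all 11 libraries (178). The summed level of the markers was 942 to 1523 CPM in fshb/lhcgr mutants, 953 to 2116 CPM in lhb/lhcgr mutants and 1023 to 2104 CPM in controls.

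These calls are close to the threshold. Those of fshr, hsd17b1, cbr1, cyp17a2 and hsd3b1 ended without lhb/lhcgr mutant 3 (adjusted p = 0.0511 to 0.0669) and without lhb/lhcgr mutant 4 (0.0543 to 0.0869). Leaving out fshb/lhcgr mutant 1 ended those of fshr, hsd17b1, cbr1, cyp17a2 and nr5a1a (adjusted p = 0.0516 to 0.069), and leaving out fshb/lhcgr mutant 3 ended those of fshr, hsd17b1 and cbr1 (0.0548 to 0.0688). The call of hsd17b1 also ended without fshb/lhcgr mutant 4 (0.0515). That of star ended without lhb/lhcgr library 1, 3 or 4, or without fshb/lhcgr library 3 (0.073 to 0.123), and that of foxl2b without lhb/lhcgr mutants 2, 3 or 4 or any 1 fshb/lhcgr library (0.0622 to 0.117). In the fit with all 11 libraries the adjusted p was 0.112 for fshr, 0.0569 for hsd17b1, 0.0639 for cyp17a2, 0.0963 for foxl2b, 0.122 for nr5a1a and 0.354 for hsd3b1.

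Ovulation resembles an inflammatory response in which prostaglandins made by cyclooxygenase act on the follicle wall and proteases open it. The cyclooxygenase gene ptgs2b (ENSDARG00000010276) had 17.3, 22.9, 20.6 and 12.6 CPM in fshb/lhcgr mutants and 34, 46.1, 50.6 and 40.7 CPM in lhb/lhcgr mutants (-1.23, SE 0.21, adjusted p = 0.00984). Its fshb/lhcgr values overlap the control range of 10.9 to 18.6 CPM, and its lhb/lhcgr values lie above it. The prostaglandin transporter gene slco2a1 (ENSDARG00000061896) had 0.748, 1.25, 0.773 and 1.61 CPM in fshb/lhcgr mutants and 11.7, 5.86, 14.2 and 16.4 CPM in lhb/lhcgr mutants (-3.44, SE 0.41, adjusted p = 0.00227). Here the fshb/lhcgr libraries all lie below the control range of 3.09 to 7.03 CPM. The lhb/lhcgr values of 11.7, 14.2 and 16.4 CPM lie above it, and that of 5.86 CPM within it. The phospholipase gene pla2g4ab, whose enzyme class frees the precursor of prostaglandins from membranes, averaged 0.769 ± 0.304 CPM in fshb/lhcgr mutants and 4.00 ± 1.2 CPM in lhb/lhcgr mutants (-2.37, SE 0.45, adjusted p = 0.0144). These 3 genes are members of the ovulation list below, and no separate list of prostaglandin genes was counted. The paralog ptgs2a was low in all groups and gave no call (-0.21, SE 0.48, adjusted p = 0.855).

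Other ovulation genes split. The transcription factor genes cebpd and cebpb were lower; both act in inflammation, and in mice the product of Cebpb is needed for ovulation. For cebpd the values were 23.8, 37.7, 27.5 and 23.5 CPM in fshb/lhcgr mutants and 89.3, 67.7, 147 and 125 CPM in lhb/lhcgr mutants (-1.93, SE 0.25, adjusted p = 0.00364). The nuclear progestin receptor gene pgr (ENSDARG00000035966), needed for ovulation in zebrafish, had 191, 211, 269.7 and 169 CPM in fshb/lhcgr mutants and 81.8, 99.5, 158 and 126 CPM in lhb/lhcgr mutants (0.85, SE 0.21, adjusted p = 0.0400). The matrix metalloproteinase gene mmp28 (ENSDARG00000059029) had 22.1, 6.38, 6.03 and 7.78 CPM in fshb/lhcgr mutants and 0.0602, 0.488, 1.04 and 0.360 CPM in lhb/lhcgr mutants (4.36, SE 0.68, adjusted p = 0.00755). In mmp28 a single fshb/lhcgr library is about as high as the controls (16.4, 37.8 and 27.3 CPM), the other 3 lie below them, and all 4 are above every lhb/lhcgr library.

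In all, 3 of 42 ovulation genes tested were higher (7.14%, against 2.86% of all genes: mmp28, pgr and the protease inhibitor gene serpine2). Lower were 5 (11.9%, against 1.93%: slco2a1, pla2g4ab, cebpd, ptgs2b and cebpb), and the median was -0.38. With lhb/lhcgr library 1 left out 1 was higher (427 of all genes) and 12 were lower (484 of all genes), and the median was -0.59. The calls of slco2a1, pla2g4ab, cebpd, ptgs2b and mmp28 held without any 1 library. Those of ptgs2b (adjusted p = 0.113), pla2g4ab (0.0679) and mmp28 (0.0585) ended without lhb/lhcgr mutants 3 and 4 together. That of pgr ended without lhb/lhcgr library 1, 2 or 4, or without fshb/lhcgr library 1, 2 or 3 (adjusted p = 0.0648 to 0.102), and that of cebpb without lhb/lhcgr library 3 or 4, or without fshb/lhcgr library 1, 2 or 3 (0.0557 to 0.0970). That of serpine2 ended without any 1 of the 8 (0.0652 to 0.113).

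**Figure D3:**
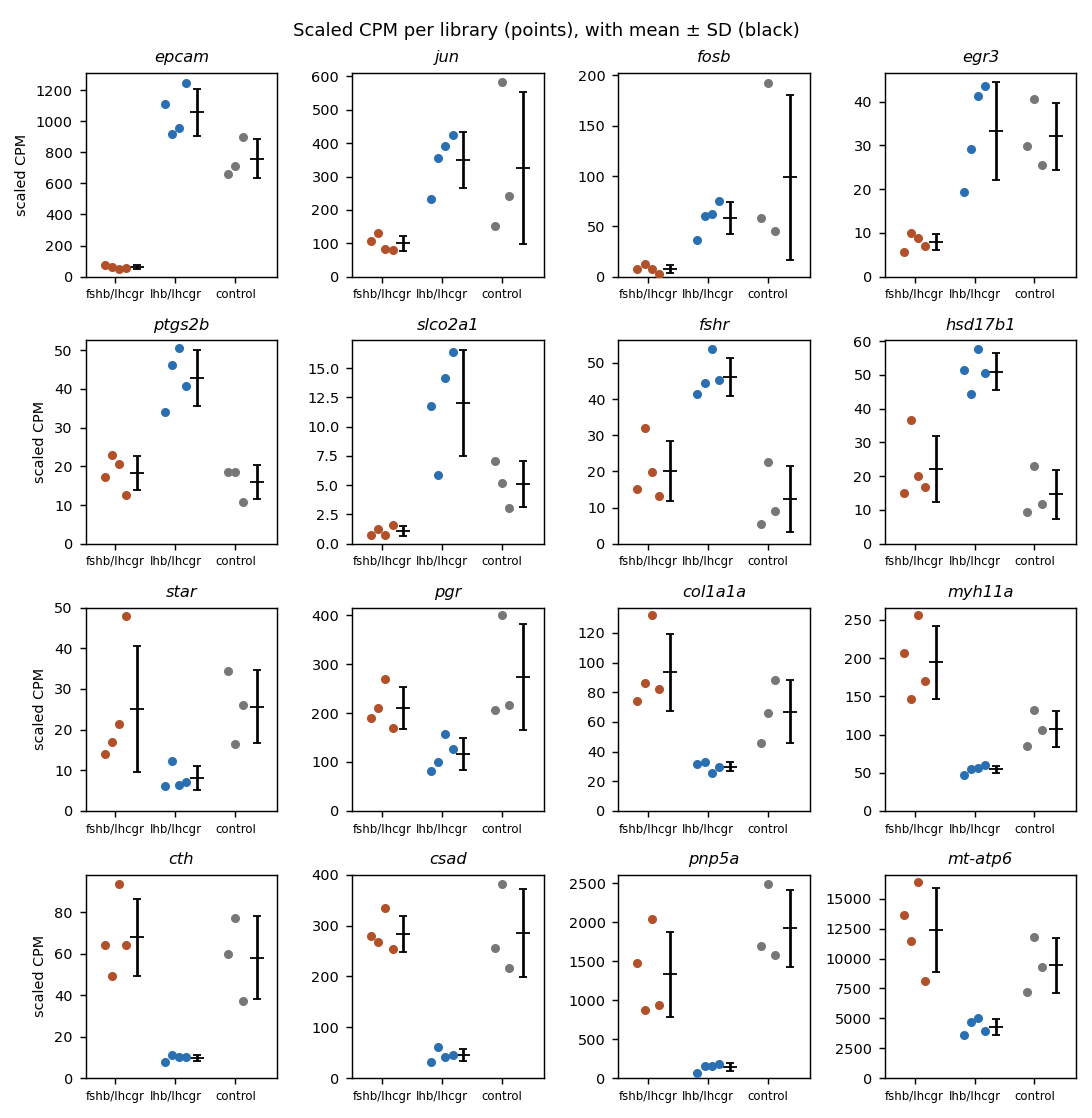
Scaled CPM (vertical axes, linear from 0) of 16 genes in each library, as points in replicate order, with the group mean ± SD in black, for fshb/lhcgr mutants (orange, n = 4), lhb/lhcgr mutants (blue, n = 4) and controls (grey, n = 3). In epcam the fshb/lhcgr mutants stand alone near 60 CPM, whereas in ptgs2b, fshr and hsd17b1 they sit beside the controls and the lhb/lhcgr mutants stand apart, as they do in cth, csad and pnp5a from below.

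Genes of the connective tissue around the follicle were higher in fshb/lhcgr mutants. Of 48 stroma and matrix genes tested, 19 were higher (39.6%, against 2.86% of all genes) and 1 was lower, with a median log2 difference of 0.81. The fibrillar collagen gene col1a1a (ENSDARG00000012405) had 73.8, 86.5, 132 and 82.2 CPM in fshb/lhcgr mutants and 31.5, 32.9, 25.5 and 29.6 CPM in lhb/lhcgr mutants (1.65, SE 0.19, adjusted p = 0.00171). Its partner chain col1a2 behaved likewise, with 74.6 ± 22.0 CPM in fshb/lhcgr mutants and 22.0 ± 1.69 CPM in lhb/lhcgr mutants (1.76, SE 0.20, adjusted p = 0.00153). The basement membrane gene nid2a (ENSDARG00000075707), which encodes a nidogen, had 34.9, 44.4, 38.3 and 26.1 CPM in fshb/lhcgr mutants and 7.34, 9.46, 5.47 and 6.66 CPM in lhb/lhcgr mutants (2.32, SE 0.24, adjusted p = 0.000901). In all 3 genes the lhb/lhcgr libraries lie close together and well below the fshb/lhcgr libraries.

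The higher members covered fibrillar collagens (col1a1a, col1a1b, col1a2, col5a1, col5a2a), collagens of other classes (col4a1, col4a2, col6a1, col6a3, col12a1a, col18a1a), basement membrane proteins (lama4, lamc1, nid1b, nid2a, hspg2), the microfibril gene fbn2b, the fibronectin gene fn1a and the proteoglycan gene dcn. The col6a3 gene called was ENSDARG00000077139, and the other tested gene of that symbol was not called. Log2 differences of the higher members ran from 0.76 (col4a2) to 2.32 (nid2a). The exception was col12a1b, at 28.0 ± 9.42 CPM in fshb/lhcgr mutants and 53.7 ± 10.2 CPM in lhb/lhcgr mutants (-0.94, SE 0.23, adjusted p = 0.0418). Its paralog col12a1a was 94.3 ± 32.8 CPM in fshb/lhcgr mutants and 32.8 ± 2.84 CPM in lhb/lhcgr mutants (1.52, SE 0.22, adjusted p = 0.00529). The call of col12a1b ended without lhb/lhcgr library 1, 3 or 4, or without fshb/lhcgr library 1, 3 or 4 (adjusted p = 0.0546 to 0.12). Some higher members were as weak. The calls of col5a2a and col4a2 were each kept in 1 of 8 fits that left out 1 library. Those of col6a1, fn1a and nid1b were each kept in 2, that of hspg2 in 3, and those of lama4 and dcn in 5. Some genes of collagen processing outside that list were also higher: the collagen chaperone genes serpinh1a (2.1, adjusted p = 0.00319) and serpinh1b (2.41, adjusted p = 0.0135), and the procollagen enhancer gene pcolceb (2.01, adjusted p = 0.00613). Of these, serpinh1a and pcolceb were picked with their values in view, and collagen processing genes were not counted as a class.

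The number of higher stroma and matrix genes was 12 without lhb/lhcgr mutant 3 or when number 4 of that group was left out, 11 without fshb/lhcgr mutant 3, 12 in the fit with all 11 libraries and 5 without lhb/lhcgr mutants 3 and 4 together. In these fits 227, 152, 289, 282 and 46 of all genes were higher, in that order, against 516. The median of the list stayed between 0.67 and 0.95 in every setting. The summed level was 4580 to 7088 CPM in fshb/lhcgr mutants, 3266 to 3972 CPM in lhb/lhcgr mutants and 3553 to 4989 CPM in controls. Longer genes were higher in general in this comparison: over 5 classes of relative gene length the median log2 difference ran from -0.12 in the shortest to 0.08 in the longest, and the share of genes called higher from 1.42% to 5.37%. With an offset for length, 15 stroma and matrix genes were higher (443 of all genes) and the median was 0.77. The calls of col5a2a, col4a2, col6a1 and hspg2 ended there (adjusted p = 0.0546 to 0.0666).

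Some contractile and vessel genes were higher as well. The smooth muscle myosin gene myh11a (ENSDARG00000009782) had 207, 146, 256 and 170.0 CPM in fshb/lhcgr mutants and 47.6, 54.7, 55.6 and 59.6 CPM in lhb/lhcgr mutants (1.84, SE 0.18, adjusted p = 0.000476), against 85.5 to 132 CPM in controls. The groups do not overlap, and the controls lie between them. The actin-binding gene cnn1b averaged 17.7 ± 6.69 CPM in fshb/lhcgr mutants and 4.80 ± 1.07 CPM in lhb/lhcgr mutants (1.88, SE 0.31, adjusted p = 0.00797). The muscle actin gene acta1a averaged 17.6 ± 6.43 CPM in fshb/lhcgr mutants and 2.43 ± 0.956 CPM in lhb/lhcgr mutants (2.85, SE 0.36, adjusted p = 0.00302).

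Together with the kinase gene mylka (1.02, adjusted p = 0.0231), nr5a1a, hsd3b1 and star, myh11a and cnn1b made up the 6 higher genes among 19 theca and interstitial markers (31.6%, against 2.86% of all genes), of which none was lower. The count was 3 with lhb/lhcgr library 3 or 4 left out, where 227 and 152 of all genes were higher, against 516. The median of that list was 0.09, and it was -0.05 when libraries were scaled by size alone, where that of all genes was -0.15. Of 28 endothelial genes, the vascular endothelial growth factor receptor genes kdrl (1.31, adjusted p = 0.00706) and flt1 (1.33, adjusted p = 0.0117) were higher (7.14%, against 2.86% of all genes) and none was lower, with a median of 0.32. Summed endothelial levels were 198.6 to 386.5 CPM in fshb/lhcgr mutants, 194 to 243 CPM in lhb/lhcgr mutants and 241.8 to 416 CPM in controls. The call of mylka ended without lhb/lhcgr library 3 or 4, or without fshb/lhcgr library 1 or 3 (adjusted p = 0.0574 to 0.0782), that of flt1 without lhb/lhcgr mutant 4 (0.0543) and that of dcn, in the matrix list, without lhb/lhcgr library 3 or 4, or without fshb/lhcgr library 3 (0.0587 to 0.0692). The part of endothelial, muscle or other cell numbers in the matrix difference was not tested.

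Several other higher genes encode metabolic enzymes. Among them csad was picked with its values in view, and genes of cysteine and taurine synthesis were not counted as a class. The gene cth (ENSDARG00000074301) encodes cystathionine gamma-lyase, which makes cysteine. It had 64.3, 49.4, 93.9 and 64.2 CPM in fshb/lhcgr mutants and 7.88, 11.3, 10.3 and 10.0 CPM in lhb/lhcgr mutants (2.78, SE 0.22, adjusted p = 0.000101). The gene csad (ENSDARG00000026348), whose enzyme turns a cysteine product into hypotaurine on the way to taurine, had 280.3, 268, 335 and 254 CPM in fshb/lhcgr mutants and 32.3, 60.7, 41.3 and 44.6 CPM in lhb/lhcgr mutants (2.67, SE 0.19, adjusted p = 6.99e-05). In both genes the fshb/lhcgr libraries lie in the control range (37.4 to 77.1 CPM for cth, apart from the highest library, and 217 to 383 CPM for csad), and the lhb/lhcgr libraries lie far below it.

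A pair of genes of carnitine synthesis, picked with their values in view, was higher too. For tmlhe, which encodes the first enzyme, the level averaged 23.4 ± 13.0 CPM in fshb/lhcgr mutants and 4.08 ± 1.80 CPM in lhb/lhcgr mutants (2.52, SE 0.43, adjusted p = 0.0102). The last enzyme's gene bbox1 had 43.8, 36.6, 47.1 and 36.2 CPM in fshb/lhcgr mutants and 13.2, 12, 8.84 and 14.1 CPM in lhb/lhcgr mutants (1.77, SE 0.20, adjusted p = 0.00149). The mitochondrial folate gene mthfd2, picked in the same way, was also higher (1.53, SE 0.22, adjusted p = 0.00480). The monoacylglycerol lipase gene mgll (ENSDARG00000036820), the only call among 42 cholesterol and lipid uptake genes (2.38%, against 4.79% of all genes), had 20.1, 38.7, 22.9 and 32.6 CPM in fshb/lhcgr mutants and 0.421, 3.05, 2.44 and 2.46 CPM in lhb/lhcgr mutants (3.76, SE 0.47, adjusted p = 0.00364). The purine nucleoside phosphorylase gene pnp5a (ENSDARG00000078619) had 1482, 870.2, 2039 and 944 CPM in fshb/lhcgr mutants and 64.9, 155, 152 and 186 CPM in lhb/lhcgr mutants (3.26, SE 0.38, adjusted p = 0.00396). It belongs to a family of near-identical copies, between which reads may be shared. Genes csad, cth, bbox1 and mthfd2 kept their calls without lhb/lhcgr mutants 3 and 4 together, while tmlhe (adjusted p = 0.136), mgll (0.0638) and pnp5a (0.0613) did not.

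The gene kcnh6a (ENSDARG00000001803), which encodes a voltage-gated potassium channel, had 36.8, 49.4, 61.0 and 33.5 CPM in fshb/lhcgr mutants and 6.14, 5.13, 3.74 and 4.32 CPM in lhb/lhcgr mutants (3.23, SE 0.25, adjusted p = 0.000101). Of all genes called, 29 were higher and 37 lower by over 8-fold. The largest rises and falls named here are those with at least 5 CPM in the higher group, no overlap and no placeholder symbol. The rest of the 10 rises named by this rule were elmod1 (3.10), the amino acid transporter gene slc1a4 (3.05), the myosin gene myo1hb (2.97) and the channel gene panx3 (3.72). Each had at most 16.6 CPM on average in fshb/lhcgr mutants. Their groups do not overlap, which the rule for naming them required. The call of slc1a4 ended without lhb/lhcgr mutant 3 (adjusted p = 0.0507) and that of panx3 without lhb/lhcgr mutant 4 (0.0672).

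Some genes of protein folding in the endoplasmic reticulum were picked because their values were higher, and they say nothing of that class as a whole. The chaperone gene hyou1 had 845, 687, 1107 and 584 CPM in fshb/lhcgr mutants and 371, 453, 371 and 389 CPM in lhb/lhcgr mutants (1.02, SE 0.19, adjusted p = 0.0122). The disulfide isomerase gene pdia3 averaged 532 ± 106 CPM in fshb/lhcgr mutants and 264 ± 46.6 CPM in lhb/lhcgr mutants (1.01, SE 0.18, adjusted p = 0.00984). The co-chaperone gene dnajb11 (0.90, adjusted p = 0.00711) and the calreticulin gene calr3b (1.11, adjusted p = 0.0107) moved in the same direction. From the list of 26 heat shock and chaperone genes, hspa5 (0.78, adjusted p = 0.0338) and serpinh1b were higher (7.69%, against 2.86% of all genes) and none was lower, with a median of -0.07. The call of hyou1 ended without lhb/lhcgr mutant 4 (adjusted p = 0.0507), and that of hspa5 without lhb/lhcgr library 1, 3 or 4, or without fshb/lhcgr library 2, 3 or 4 (0.0639 to 0.12).

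Among the largest falls named by the same rule, ncs1a (ENSDARG00000055229), which encodes a neuronal calcium sensor, had 3.94, 2.63, 2.86 and 1.3 CPM in fshb/lhcgr mutants and 32.6, 22.8, 51.0 and 42.3 CPM in lhb/lhcgr mutants (-3.80, SE 0.36, adjusted p = 0.000476). The cytokine gene tnfsf12 (ENSDARG00000069376), a member of the tumour necrosis factor family, had 0.748, 2.3, 3.09 and 0.494 CPM in fshb/lhcgr mutants and 14.0, 12.3, 21.6 and 18.9 CPM in lhb/lhcgr mutants (-3.34, SE 0.51, adjusted p = 0.00706). In both genes the lhb/lhcgr libraries lie above all controls. The bicarbonate transporter gene slc4a4b (-3.42) and the matrix protein gene mamdc2a (-3.30) were lower in every fshb/lhcgr library, as the naming rule required. Their calls held without any 1 library. Without lhb/lhcgr mutants 3 and 4 together the calls of tnfsf12, slc4a4b and mamdc2a ended (adjusted p = 0.0731 to 0.0770).

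In 3 of the largest falls named by that rule the lhb/lhcgr libraries differed widely among themselves. The bone transcription factor gene runx2a had 0.204, 0.394, 0.0773 and 0.247 CPM in fshb/lhcgr mutants and 0.782, 2.01, 31.3 and 11.6 CPM in lhb/lhcgr mutants (-5.57, SE 1.22, adjusted p = 0.0386). The neurofilament gene nefla had 0.816, 1.18, 1.62 and 0.556 CPM in fshb/lhcgr mutants and 1.81, 37.6, 8.84 and 10.8 CPM in lhb/lhcgr mutants (-3.82, SE 0.83, adjusted p = 0.0330). The glucuronosyltransferase gene ugt5g1, again one of several near-identical copies, had 12.6, 15.5, 11 and 14.0 CPM in fshb/lhcgr mutants and 22.3, 94.4, 234 and 138 CPM in lhb/lhcgr mutants (-3.20, SE 0.63, adjusted p = 0.0315). The call of runx2a ended without lhb/lhcgr mutant 4 or any 1 fshb/lhcgr library (adjusted p = 0.0730 to 0.122), that of nefla without lhb/lhcgr mutant 3 or 4 or any 1 fshb/lhcgr library (0.0648 to 0.106), and that of ugt5g1 without lhb/lhcgr mutant 2, 3 or 4 or any 1 fshb/lhcgr library (0.0507 to 0.103).

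Genes of the insulin-like growth factor list changed only downwards among those called, with 3 of 20 lower (15%, against 1.93% of all genes) and a median of -0.32. The 3 encode binding proteins and an adaptor. Without the filter on low counts 1 of 29 was lower. The binding protein gene igfbp5b (ENSDARG00000025348) had 24.7, 50.5, 24.2 and 13.2 CPM in fshb/lhcgr mutants and 102, 172, 341 and 239 CPM in lhb/lhcgr mutants (-2.92, SE 0.49, adjusted p = 0.0176). The adaptor gene irs2b, which carries the insulin signal inside cells, averaged 27.2 ± 6.30 CPM in fshb/lhcgr mutants and 114 ± 59.2 CPM in lhb/lhcgr mutants (-2.07, SE 0.36, adjusted p = 0.0157), and igfbp7 was lower too (-1.29, SE 0.23, adjusted p = 0.0111). The gonadal gene igf3, made in fish follicles, gave no call, with 30.5 ± 8.91 CPM in fshb/lhcgr mutants and 26.8 ± 4.89 CPM in lhb/lhcgr mutants (0.18, SE 0.22, adjusted p = 0.698). The calls of igfbp5b and irs2b ended without lhb/lhcgr mutant 4 or fshb/lhcgr mutant 1 or 3 (adjusted p = 0.0523 to 0.0675). They also ended without the filter (0.0514 and 0.0540) and with the replicate number as a block (0.0689 and 0.0531). That of igfbp7 ended in the fit with all 11 libraries (0.0679).

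Cytokine and chemokine genes were lower in 4 cases of 45 (8.89%, against 1.93% of all genes: tnfsf12, tnfrsf21 and the NF-kappa-B inhibitor genes nfkbiaa and nfkbiab) and higher in 1 (2.22%, against 2.86%). The higher gene, cxcl12b, which encodes a chemokine of stromal cells, averaged 21.9 ± 5.49 CPM in fshb/lhcgr mutants and 7.01 ± 1.04 CPM in lhb/lhcgr mutants (1.64, SE 0.24, adjusted p = 0.00581). Of 33 macrophage and neutrophil markers, the protease gene ctsk alone was called (3.03%, against 4.79% of all genes). It had 20.9, 20.4, 18.9 and 17.5 CPM in fshb/lhcgr mutants and 40.0, 57.0, 123 and 91.5 CPM in lhb/lhcgr mutants (-2.0, SE 0.30, adjusted p = 0.00706). The summed level of these markers was 302 to 529 CPM in all fshb/lhcgr mutants and 298 CPM in lhb/lhcgr mutant 1, but 1820 to 2236 CPM in lhb/lhcgr mutants 2, 3 and 4, and 294 to 1591 CPM in controls. Much of that sum came from 3 genes without a call: mmp13a (ENSDARG00000114451) averaged 35.9 CPM in fshb/lhcgr mutants and 671 CPM in lhb/lhcgr mutants (adjusted p = 0.254), apoeb 45.8 and 364 CPM (0.333) and mmp9 12.2 and 141 CPM (0.0629). In lhb/lhcgr mutant 1 they stood at 1.63, 1.87 and 17.1 CPM. No marker of the list was at 0 in all libraries, and the median was -0.42. With lhb/lhcgr library 1 left out, 4 markers were lower (484 of all genes) and the median was -0.70. Of the 33 markers, 8 had a positive difference and 25 a negative one. The general leukocyte marker ptprc, which most blood cells other than red cells express, was picked with its values in view. It averaged 6.09 CPM in fshb/lhcgr mutants and 4.44 CPM in lhb/lhcgr mutants (0.45, adjusted p = 0.489). Without lhb/lhcgr library 4, or without fshb/lhcgr library 1, nfkbiaa lost its call (0.0591 and 0.0584), as did tnfrsf21 without lhb/lhcgr library 3 or 4 or any 1 of the fshb/lhcgr libraries (0.0769 to 0.142). The part of macrophages in the lower immediate early, prostaglandin and cytokine genes was not tested.

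Most protein genes of the mitochondrial genome were higher, and some ribosomal protein genes were lower. Of 13 protein genes of the mitochondrial genome, 9 were higher (69.2%, against 2.86% of all genes), none lower, and the median was 1.07. Their summed level was 58559 to 126084 CPM in fshb/lhcgr mutants and 49346 to 73412 CPM in lhb/lhcgr mutants, which overlap. Controls had 63275 to 132933 CPM. The ATP synthase gene mt-atp6 had 13674, 11456, 16374 and 8097 CPM in fshb/lhcgr mutants and 3574, 4681, 5025 and 3908 CPM in lhb/lhcgr mutants (1.53, SE 0.21, adjusted p = 0.00430). The complex I gene mt-nd1 averaged 3112 ± 917 CPM in fshb/lhcgr mutants and 1109.8 ± 254 CPM in lhb/lhcgr mutants (1.49, SE 0.23, adjusted p = 0.00711). In contrast the cytochrome oxidase gene mt-co1 had 43036, 30877, 43213 and 17909 CPM in fshb/lhcgr mutants and 20652, 31725, 28961 and 22899 CPM in lhb/lhcgr mutants (0.37, SE 0.26, adjusted p = 0.455), with overlapping ranges. All 7 complex I genes and both ATP synthase genes of the mitochondrial genome were among those called, such as mt-nd2 (1.3) and mt-nd6 (1.22). Nuclear genes of oxidative phosphorylation showed 1 call in 82 (1.22%, against 4.79% of all genes: cox6b1, higher), with a median of -0.14, and 74 mitochondrial ribosomal protein genes showed none, with a median of -0.23. The call of cox6b1 ended without lhb/lhcgr library 3 or 4 or any 1 of the fshb/lhcgr libraries (adjusted p = 0.0555 to 0.106).

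Of 81 cytosolic ribosomal protein genes, 13 were lower (16%, against 1.93% of all genes), none was higher, and the median was -0.37 with quartiles of -0.46 and -0.28. An example is rpl21, with 161, 201, 154 and 179 CPM in fshb/lhcgr mutants and 246, 287, 266 and 258 CPM in lhb/lhcgr mutants (-0.61, SE 0.13, adjusted p = 0.0223). Likewise lower were rpl24 (-0.65) and rps28 (-0.67). Both groups rest on several libraries. The number of mitochondrial genes called was 2 without lhb/lhcgr mutant 4 and 2 when fshb/lhcgr mutant 1 was left out, 5 without fshb/lhcgr mutant 3 and 1 without lhb/lhcgr mutants 3 and 4 together. In these fits 152, 219, 289 and 46 of all genes were higher. Ribosomal protein genes fell to 0 or 1 calls without any 1 of lhb/lhcgr mutants 2, 3 and 4 and fshb/lhcgr mutants 1 and 3, where 77 to 294 of all genes were lower. They fell to 3 without fshb/lhcgr mutant 2 (314 of all genes). They numbered 7 with the length offset (339 of all genes), 34 with scaling by library size alone (625) and 0 in the fit with all 11 libraries (178). Their median lay between -0.29 and -0.50 throughout.

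Of 49 oocyte and egg envelope genes, 5 were higher (10.2%, against 2.86% of all genes: the deadenylase gene cnot6a, the germ granule genes tdrd7a and tdrd5, and the egg envelope genes zp2.1 and zp3a.2), none lower, with a median of 0.33. The count was 2 when lhb/lhcgr library 3, lhb/lhcgr library 4 or fshb/lhcgr library 1 was left out, and 1 in the fit with all 11 libraries. In these fits 227, 152, 219 and 282 of all genes were higher, in that order. The gene tdrd7a averaged 168 ± 16.1 CPM in fshb/lhcgr mutants and 97.9 ± 11.2 CPM in lhb/lhcgr mutants (0.78, SE 0.13, adjusted p = 0.00857). The oocyte growth factor genes bmp15 (0.17, SE 0.14, adjusted p = 0.539) and gdf9 (0.03, SE 0.21, adjusted p = 0.955) gave no call. Nor did any of 30 genes of oocyte maturation and cell cycle (median 0.08) or 15 of early meiosis (0.25). Of 37 genes of yolk uptake, proteolysis and hydration, ctsk alone was called (2.7%, against 4.79% of all genes), and the median was 0.04. In that list 4 were lower with lhb/lhcgr library 1 left out, where 484 of all genes were. The call of zp2.1 ended without lhb/lhcgr library 2, 3 or 4, or without fshb/lhcgr library 1, 3 or 4 (adjusted p = 0.0504 to 0.0838), and those of tdrd5 and zp3a.2 each without any 1 of 5 or 6 libraries (0.0512 to 0.145).

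In the signalling lists 1 to 3 genes each were called, or none. In the TGF-beta family 3 of 53 (5.66%, against 2.86% of all genes) were higher (smad5, acvr1ba and fstl1b), none lower; the inhibin alpha gene inha averaged 435 ± 123 CPM in fshb/lhcgr mutants and 290.4 ± 65.2 CPM in lhb/lhcgr mutants without a call (0.58, SE 0.22, adjusted p = 0.153). For the activin subunit gene inhbaa the difference was -1.07 (SE 0.40, adjusted p = 0.164), for inhbb -1.47 (SE 1.00, adjusted p = 0.442) and for the anti-Müllerian hormone gene amh -0.17 (SE 0.37, adjusted p = 0.845). Wnt genes had 3 higher of 37 (8.11%; axin1, axin2 and lef1) and none lower, with a median of 0.19. The feedback gene axin2 averaged 71.4 ± 10.1 CPM in fshb/lhcgr mutants and 45.5 ± 1.83 CPM in lhb/lhcgr mutants (0.65, SE 0.14, adjusted p = 0.0227). Of 36 cAMP signalling genes, adcy8 (2.58, adjusted p = 0.0246) and prkacbb (0.58, adjusted p = 0.0251) were higher and pde10a was lower (-1.2, adjusted p = 0.0488), together 8.33% against 4.79% of all genes. All 3 of these cAMP calls and all 3 Wnt calls ended when lhb/lhcgr mutant 3 was left out and when number 4 was (adjusted p = 0.0525 to 0.166). Those of acvr1ba and fstl1b each ended without any 1 of 7 libraries (0.0522 to 0.126). Medians were 0.03 for the TGF-beta list and -0.06 for the cAMP list.

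Proliferation genes had 4 higher of 42 (9.52%, against 2.86% of all genes: ccne1, mki67, rb1 and top2a), none lower, and a median of 0.12. With the length offset 1 was higher (443 of all genes), as mki67 (adjusted p = 0.0717), rb1 (0.0506) and top2a (0.0928) lost their calls. In the fit with all 11 libraries none was higher (282 of all genes). The proliferation marker mki67 had 303, 302, 293 and 259 CPM in fshb/lhcgr mutants and 189.9, 205, 145 and 181 CPM in lhb/lhcgr mutants (0.68, SE 0.14, adjusted p = 0.0183), and its call ended without lhb/lhcgr mutant 4 (0.068) or fshb/lhcgr mutant 1 (0.0588). Among 44 apoptosis and p53 genes mdm4 was higher and mcl1b lower, together 4.55% against 4.79% of all genes, with a median of -0.12. These calls are close to the threshold too. Those of ccne1 (0.0544) and mdm4 (0.0591) ended without lhb/lhcgr library 4. Those of rb1, top2a, mcl1b and, from the Notch list, jag1b ended without any 1 of 4 to 6 libraries (0.0507 to 0.115). Of 31 Hippo genes 1 was lower (3.23%, amotl2b, -1.08), as was 1 of 31 Notch genes (3.23%, jag1b, -1.87) and 1 of 7 hormone and receptor genes (14.3%, fshr), against 1.93% of all genes. In turn 1 was higher of 13 steroid receptor genes (7.69%, pgr) and 1 of 18 erythrocyte genes (5.56%, cahz), against 2.86% of all genes. Each of these shares is a single gene. No gene was called among 16 of the EGF family, 11 lymphocyte, 16 male pathway and 3 pituitary genes, at medians of 0.01, 0.00, -0.17 and 0.38. When libraries were scaled by size alone the medians of the TGF-beta, Notch, Hippo, EGF, yolk and oocyte maturation lists turned slightly negative. The median of all genes was -0.15 in that setting, and each of these lists stayed above it.

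**Figure D4:**
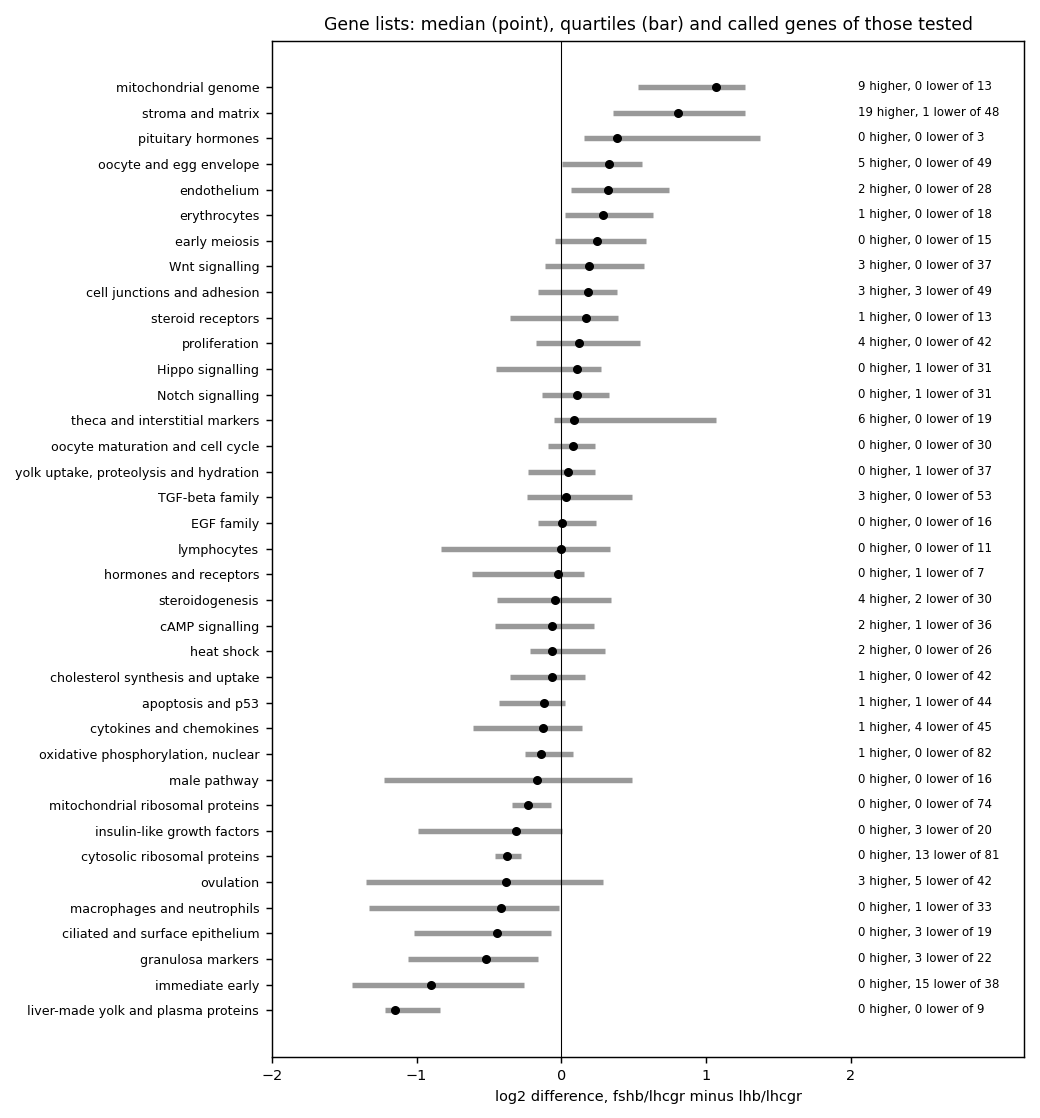
Median (point) and quartiles (bar) of the log2 difference of fshb/lhcgr over lhb/lhcgr mutants for the tested members of 37 gene lists, sorted by median, with the number of genes called higher and lower. The mitochondrial genome (1.07) and stroma and matrix (0.81) lie at the top. Immediate early genes (-0.90) lie near the bottom, above the liver list, of which no gene was called. The liver median rests on the genes that passed the count filter, and it was 0.97 without the filter.

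The control libraries were set beside each contrast by the overlap of their range with that of each mutant. Of the 516 genes called higher, the range of the 3 controls overlapped the fshb/lhcgr range alone in 338 (65.5%), the lhb/lhcgr range alone in 30 (5.81%), both in 120 (23.3%) and neither in 28 (5.43%). Of the 349 called lower it overlapped the fshb/lhcgr range alone in 175 (50.1%), the lhb/lhcgr range alone in 41 (11.7%), both in 117 (33.5%) and neither in 16 (4.58%). Among genes not called the shares were 15.9%, 4.90%, 73.6% and 5.64%. The calls were chosen for a gap between the mutants, so an overlap with both is less frequent among them by construction. The controls overlap the fshb/lhcgr mutants alone for csad, cth, kcnh6a, pnp5a, mgll, col1a1a, ncs1a, tnfsf12, igfbp5b and ptgs2b. The reverse holds for jun, fosb, egr3, fosab, slco2a1 and dcn, where the controls overlap the lhb/lhcgr mutants alone, and epcam and myh11a have controls apart from both.

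**Figure D5:**
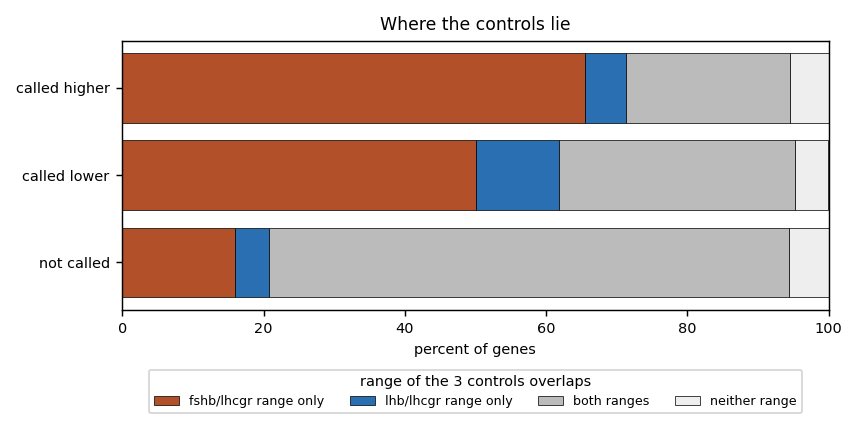
Share of genes (horizontal axis, percent) by which mutant range the range of the 3 controls overlaps, for genes called higher in fshb/lhcgr than in lhb/lhcgr mutants (516), called lower (349) and not called. The fshb/lhcgr range alone is overlapped in 65.5% of higher and 50.1% of lower calls, and the lhb/lhcgr range alone in 5.81% and 11.7%.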

How the data were processed

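RNA-seq counts of fully grown follicles were compared between 4 fshb/lhcgr and 4 lhb/lhcgr mutant libraries, grouped by genotype label. The authors deposited raw counts per gene (35889 genes) and FPKM values. RNA was purified on poly-T beads and libraries made with the TruSeq RNA kit, per the labels' protocols, and DESeq2 1.20.0 is named in the submitters' processing notes. The aligner, the counter and the build are, like the use of strand, not given in the sources used here. Coordinates are left out for this reason, and reads of near-identical, overlapping or antisense genes may be shared between them. The deposited tables of each mutant against controls were not used. Counts were analysed as deposited with edgeR 4.0.16 in R 4.3.3: filterByExpr on the 8 libraries (minimum count 10, minimum total 15), TMM factors over all 11 libraries, and a robust quasi-likelihood fit of the 8, 2-sided, with Benjamini-Hochberg adjustment and a threshold of 0.05. Deposited FPKM values served only to derive relative gene length from counts over FPKM. The common biological coefficient of variation was 0.342. The procedure was tested on simulated data.

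The members and the 37 gene lists were chosen with earlier results of these data known. Lists were matched by symbol, with 86 of 1296 entries unmatched, and are described by counts and medians without a test. Genes named are the 10 largest rises and falls among called genes with at least 5 CPM in the higher group, no overlap and a symbol that is no placeholder; up to 3 called members with the smallest p of each list; and a set of reproductive genes, called or not. Genes outside this rule were picked with their values in view. Alternatives were RLE and upper-quartile factors, library size alone, no filter, a filter of 1 CPM in 4 libraries, all 11 libraries, a length offset, the replicate number as a block, DESeq2 1.42.0, limma-voom (limma 3.58.1), and leaving out each library or lhb/lhcgr mutants 3 and 4 together.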

Additional observations from a re-analysis of the deposited data

Results flagged for a closer look

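In 15 of 316 groups of 4 libraries, over 159 genes named, a single library lay far from the other 3. Chance flags about 1 group in 20. In lhb/lhcgr mutants, lhb was 9.76 CPM in library 2, against 0.37 to 1.2 CPM in the others. The early gene ier5 was 52.9 CPM in lhb/lhcgr mutant 1, against 104 to 113 CPM. There nfkbiaa was 47.8 CPM, against 88.4 to 90.6 CPM, and the lipoprotein gene apoeb 1.87 CPM, against 447 to 518 CPM. In lhb/lhcgr mutant 1 flt1 was 6.98 CPM, against 5.13 to 5.36 CPM. The gene zgc:77517 was 96.3 CPM in lhb/lhcgr mutant 2, against 150 to 157 CPM, and the ribosomal gene rps28 was 165 CPM in lhb/lhcgr mutant 4, against 130 to 135 CPM. In fshb/lhcgr mutants, mmp28 was 22.1 CPM in library 1, against 6.03 to 7.78 CPM. In fshb/lhcgr mutant 2 oclnb was 107 CPM, against 129 to 134 CPM. In fshb/lhcgr mutant 3 pdia3 was 690 CPM, against 470 to 491 CPM, and cahz 89.6 CPM, against 61 to 65.3 CPM. There the matrix genes col6a3 (69.8 CPM, against 31.5 to 36.2 CPM) and nid1b (67.7 CPM, against 41.6 to 45.8 CPM) stood apart as well. In fshb/lhcgr mutant 4 axin2 was 86.6 CPM, against 65.3 to 67.5 CPM, and zp2.1 was 356 CPM, against 250 to 262 CPM.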

How the results depend on the processing

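Against 516 genes higher and 349 lower, the counts were 323 and 625 with library size alone, 282 and 178 with all 11 libraries in the fit, 1037 and 832 with DESeq2, and 46 and 14 without lhb/lhcgr mutants 3 and 4 together. With each library left out in turn, higher calls ran from 152 to 553 and lower calls from 77 to 484. RLE factors (553 and 349), upper-quartile factors (520 and 345), no filter (585 and 387), the 1 CPM filter (572 and 324), the length offset (443 and 339) and limma-voom (494 and 303) stayed within 1.5 times. The causes were not tested. With the replicate block 519 genes were higher and 320 lower (436 and 339 with the length offset as well). Deviations of same-numbered libraries correlated at 0.139, 0.0119, 0.13 and -0.0401, so the numbers are not shown to pair the libraries, and not every library correlated best with its own number. Of 131 called genes named, 63 kept their call without any 1 library and 20 under all settings run, and no named gene changed sign as a called value. Genes below about 1 CPM rest on few counts.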
